A study of Mus musculus with 12 samples.

Results

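The genes described here are the 10 core genes of the circadian clock: Arntl (also called Bmal1), Clock, Per1, Per2, Per3, Cry1, Cry2, Nr1d1, Nr1d2 and Dbp. They were taken by name from 54146 genes counted in whole mouse retina, by matching Ensembl identifiers to GENCODE M21 symbols. All 10 were counted in each of 12 libraries, and all 10 were among the 18628 genes that passed a filter on low counts. Each library came from 1 eye of 1 mouse on a 129/SV background. The 3 control mice were collected at P30 (postnatal day 30). The other 9 mice carried Crx-CreERT2 and Otx2 flox/flox, received tamoxifen at P30 and were collected at P32, P34 or P38 (3 mice each), that is 2, 4 and 8 d after induction. The Crx promoter drives the tamoxifen-dependent recombinase in photoreceptors, so the conditional knockout (cKO) of Otx2, a homeodomain transcription factor, was made in these cells, while the libraries held RNA of all retinal cells. The labels call the P30 mice control, and whether they carried the same alleles is not given for these libraries in the sources used here. Age, tamoxifen and deletion changed together between P30 and each later age and cannot be told apart.

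The clock is a loop of transcription and translation present in most cells. ARNTL and CLOCK pair and activate genes through E-box elements, among them the Per and Cry genes, whose proteins return to the nucleus and repress the pair. NR1D1 and NR1D2 (REV-ERB alpha and beta) repress Arntl and are themselves targets of the pair, and DBP is an output factor that activates genes through D-box elements. The retina holds its own clock, which runs in several of its cell types, photoreceptors included. Light and dark alternated every 12 h, and all mice were killed at 3 P.M., so the values stand for 1 time of day. The hour of lights-on is not given in the sources used here, and neither phase nor amplitude of a daily rhythm was measured.

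The libraries held 29701483 to 60145034 counts on genes, and 3 counts corresponded to 0.0473 to 0.102 CPM (counts scaled to a common library size by TMM). Markers of the retina were present throughout: the summed level of 5 genes each was 1179 to 1630 CPM for cones and 1029 to 1343 CPM for bipolar cells. The sum of 6 rod genes differed between ages, at 59940 to 65950 CPM at P30, 54440 to 59180 CPM at P32, 67910 to 91170 CPM at P34 and 66630 to 100500 CPM at P38, so that no P34 or P38 mouse overlapped those of P30 or P32. Otx2, counted over all exons, was at 293 to 328 CPM in the P30 mice and 307 to 377 CPM in the 9 cKO mice (log2 fold change 0.16, standard error 0.09, adjusted p = 1, edgeR's quasi-likelihood test). Counts over the whole gene do not check a deletion of part of it. In P32 mouse 4, long transcripts were low. The log2 level of each gene was centred over the mice. The median of 4253 genes of at least 6 kb of exon minus that of 1195 genes of at most 2 kb was -0.97 in this mouse, against -0.14 to 0.35 in the other 11. The same mouse had the highest sum of 8 lens genes, 45770 CPM, followed by a P30 mouse at 39460 CPM, and the lowest was 279.8 CPM in a P34 mouse. The 7 genes of ciliary body and iris summed to 46.7 to 54.0 CPM at P34 and to 77.0 to 126 CPM in all other mice. In bulk RNA, fewer cells of a type and less RNA per cell cannot be told apart.

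None of the 10 clock genes passed the threshold in any comparison, which asked for an adjusted p of 0.05 or less and a fold change whose log2 was 0.5 or more in size. Against P30, 0 of 10 changed at P32 (0% of all genes tested passed), 0 of 10 at P34 (0.660% of all genes) and 0 of 10 at P38 (0%). Here and throughout, p-values came from the quasi-likelihood test of edgeR and were adjusted by Benjamini-Hochberg over all genes tested. The 9 cKO mice together gave 0 of 10 as well, with 0.0537% of all genes past the threshold. Between the later ages, 0 of 10 differed for P34 against P32 (background 0.242%), P38 against P34 (0.199%) and P38 against P32 (0%), and 0 of 10 differed in the test over the 4 ages (0.344%). At an unadjusted p of at most 0.05, Clock and Dbp passed at P32 against P30 (2 of 10, with 5.64% of all genes), none at P34 (10.5%), Nr1d1 at P38 (1 of 10, with 5.64%) and none for the 9 cKO mice together (2.63%). Clock and Dbp passed in both other comparisons with P32, P34 against P32 (26.9% of all genes) and P38 against P32 (23.3%), and over the 4 ages (17.2%), and Per1 passed at P38 against P34 (5.08%). The comparisons with P30 share the same 3 controls, and those with P32 share the same 3 mice. DESeq2 also gave 0 of 10 in each comparison with P30, where it called 0.134% (P32), 1.98% (P34), 0.242% (P38) and 0.247% (the 9 cKO mice) of all genes. It gave 0 of 10 for P38 against P34 as well (0.773%). For P34 against P32 it called Dbp (with 7.55% of all genes). Clock there had a DESeq2 adjusted p of 0.0148, and its log2 fold change of 0.499 lay just under the limit of 0.5. Both Clock and Dbp were called by DESeq2 for P38 against P32 (5.00%) and over the 4 ages (7.31%). Leaving out P30 mouse 1, which was low in smooth muscle genes (29.5 CPM summed over 6 genes, where the highest P30 mouse had 198 CPM), gave 0 of 10 in all 8 comparisons, where the share of all genes past the threshold, set against P30, was 0.102% (P32), 0.768% (P34), 0.0698% (P38) and 0.225% (the 9 cKO mice). It was 0.193% for P34 against P32, 0.161% for P38 against P34, 0% for P38 against P32 and 0.499% over the 4 ages.

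The intervals give the sizes of change left by the spread between mice within 1 fit. For the 9 cKO mice against P30, log2 fold changes ran from -0.12 (Nr1d1) to 0.06 (Per2), and the 95% intervals of the 10 genes lay between -0.49 (Per3) and 0.48 (Dbp), that is between 0.712-fold and 1.40-fold. Cry1 had the narrowest interval, from -0.16 to 0.13. At single ages against P30 the bounds were wider, from -0.77 for Per3 at P34 to 0.76 for Dbp at P32. Other fits moved some values further. With a covariate for ciliary body and iris genes (their mean log2 CPM), P34 against P30 gave -0.93 for Per3 (standard error 0.42, adjusted p = 0.811), where the value without it was -0.29. For Per2 it gave -0.69, where the value without it was -0.16. The values of this covariate at P34 did not overlap those of the other mice. Over the 10 genes, the median difference from P30 was 0.02 (log2) in the P32 mice, -0.03 in the P34 mice and -0.10 in the P38 mice, beside -0.01, -0.00134 and -0.01 over all genes tested. At P38, 8 of the 10 genes had a negative value, of which 1 passed an unadjusted p, while 48.2% of all genes had a positive value. In the plot of differences, the intervals of Arntl, Per2, Per3, Cry1, Cry2 and Nr1d2 include 0 in all 6 comparisons between ages.

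**Figure D1:**
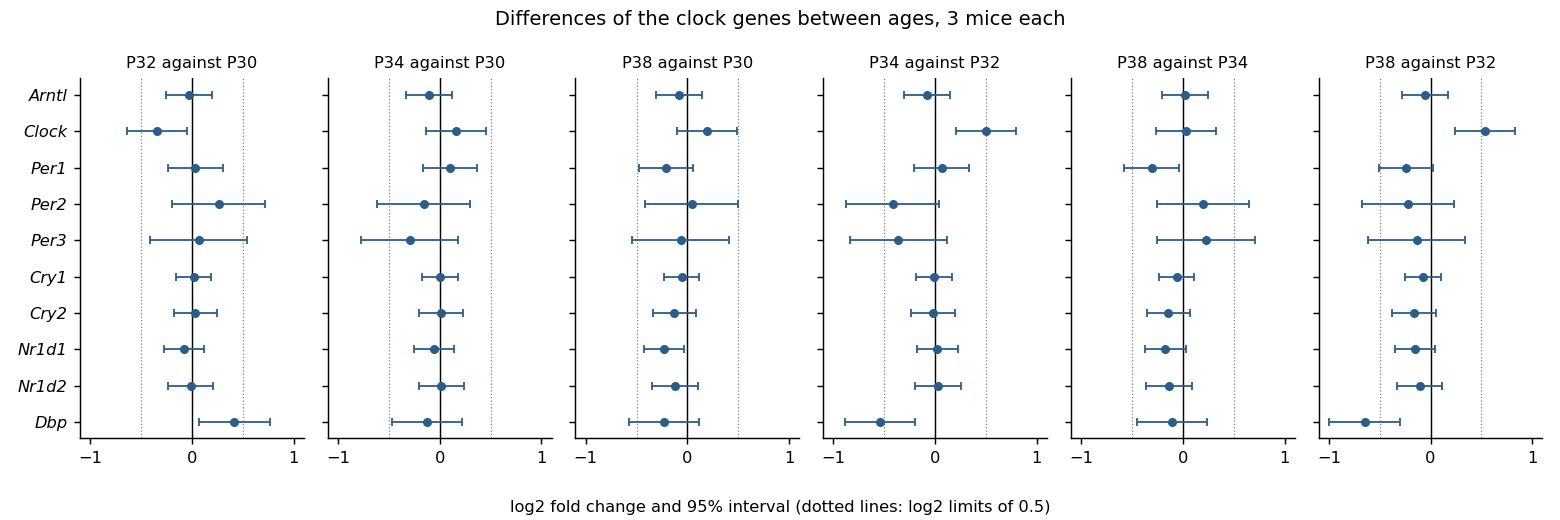
Log2 fold change (horizontal axis) of each of the 10 clock genes (rows) in the 6 comparisons between ages, 3 mice in each group; points are edgeR estimates, bars their 95% intervals, and dotted lines the log2 limits of 0.5. Clock and Dbp lie farthest from 0, at 0.53 and -0.65 for P38 against P32, and neither passed the adjusted threshold.

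Levels per length set the genes in an order that is given here for P30 as CPM per kb of exon. Nr1d1 was highest at 67.2 ± 3.78 CPM per kb (SD, n = 3 here and for the next values), followed by Dbp at 44.3 ± 2.64, Nr1d2 at 39.99 ± 1.27, Cry2 at 24.6 ± 1.48 and Cry1 at 17.9 ± 1.06. Each of these 5 genes lay apart from its neighbour in the order in all 3 P30 mice. Per1 at 14.98 ± 1.45, Arntl at 13.95 ± 1.74, Per3 at 12.4 ± 1.1 and Clock at 11.97 ± 1.12 CPM per kb overlapped from one to the next. Per2 was lowest at 4.41 ± 0.231 CPM per kb, below all others in every P30 mouse. On this scale the repressors of Arntl and the output factor were thus the most abundant transcripts at the hour of collection, and both genes of the activating pair stood among the lowest.

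**Figure D2:**
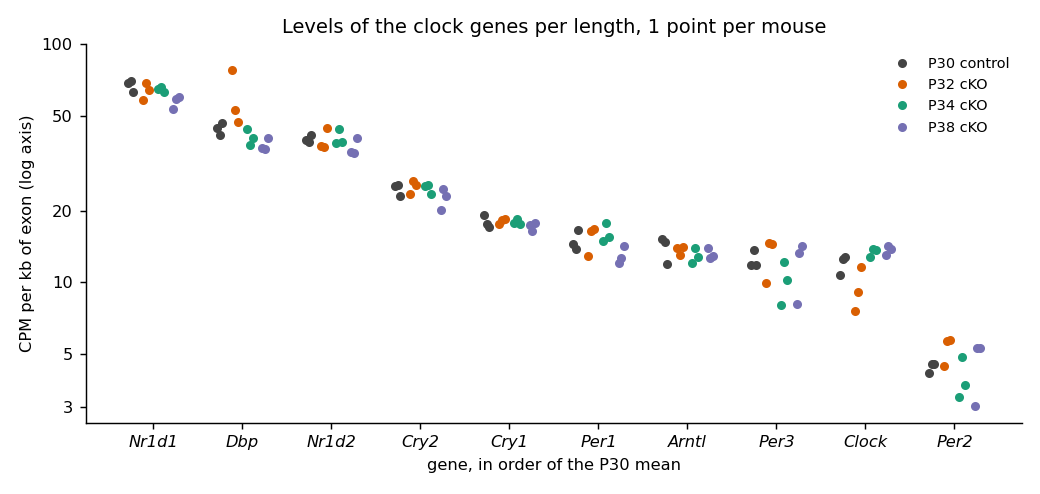
Level of each clock gene in CPM per kb of exon (vertical log axis), 1 point per mouse, coloured by age group, with genes in the order of their P30 mean. Nr1d1 lies highest and Per2 lowest at P30, and P32 mouse 4 stands out for Dbp at 77.9 CPM per kb.

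Arntl, the partner shared by CLOCK and its relatives, had 114, 111 and 89.9 CPM in P30 mice 1 to 3. The P32 mice had 105.1, 98.2 and 105.3 CPM, the P34 mice 90.9, 104.9 and 96.2 CPM, and the P38 mice 104.6, 95.3 and 96.8 CPM. All groups overlapped, and the lowest and highest values of the 12 both came from P30 mice. The log2 fold change of the 9 cKO mice against P30 was -0.07 (standard error 0.08, adjusted p = 1). Arntl lies at chr7:113207465-113314126 on the plus strand of GRCm38 (ENSMUSG00000055116) and shares 33 bp of exon with Gm45355 on the opposite strand.

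Clock, which encodes the other activator and is the longest of the 10 in exon at 13.7 kb (ENSMUSG00000029238, chr5:76209868-76304792, minus strand), varied most among the activators. It was at 147, 171 and 175 CPM in the P30 mice. The P32 mice had 104.4, 125 and 159 CPM, the P34 mice 174, 189 and 187 CPM, and the P38 mice 179, 195 and 189 CPM. All P34 and P38 mice thus lay above all P32 mice, and all P38 mice above all P30 mice, while P32 and P30 overlapped through P32 mouse 6. Groups without overlap, in either direction, were found in 28.4% of all genes for P34 against P32, 26.4% for P38 against P32 and 16.2% for P38 against P30. The sum of rod genes was likewise lowest in the P32 mice and higher in all P34 and P38 mice, and its part in the values of Clock was not tested. Set against P30, the P32 mice gave a log2 fold change of -0.34 (adjusted p = 0.698, standard error 0.14), the P34 mice 0.16 and the P38 mice 0.19. Against P32 it was 0.50 at P34 (95% interval 0.21 to 0.80, adjusted p = 0.0949) and 0.53 at P38 (0.24 to 0.83, adjusted p = 0.114).

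Dbp, the PAR bZIP output factor of the loop (ENSMUSG00000059824, chr7:45705088-45710203, plus strand), moved the other way. It was at 133, 124 and 140.1 CPM at P30. The P32 mice had 233, 157.5 and 140.3 CPM, the P34 mice 132, 113 and 120.3 CPM, and the P38 mice 109.7, 108 and 121 CPM. All P32 mice lay above all P30, P34 and P38 mice, narrowly so for P32 mouse 6 over P30 mouse 3, and all P38 mice lay below all P30 mice. Groups without overlap, in either direction, were found in 9.65% of all genes at P32 against P30, and the shares for the other comparisons are those given for Clock. Against P30, no clock gene had groups without overlap at P34 (20.1% of all genes) or in the 9 cKO mice together (0.601%). The log2 fold change was 0.42 at P32 against P30 (standard error 0.16, adjusted p = 0.698), -0.54 at P34 against P32 (95% interval -0.89 to -0.20, adjusted p = 0.0962) and -0.65 at P38 against P32 (-0.99 to -0.30, adjusted p = 0.114). Of the exon sequence of Dbp, 18% lies opposite exons of Sphk2, and the strand setting of the counting is not given in the sources used here.

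Both differences moved with the library of P32 mouse 4, which held the lowest Clock and the highest Dbp of all 12. Relative to the mean of P32 mice 5 and 6, that library had 1.57 times the Dbp and 0.735 times the Clock. Per3, with 9.61 kb of exon, was at 0.683 times, Per1 and Per2 at 0.783 and 0.781 times, and Nr1d1 and Cry1, of about the same exon length as Dbp, at 0.875 and 0.955 times. Arntl, at 7.52 kb, was at 1.03 times. Without mouse 4, the differences of P32 against P30 were smaller, at -0.21 for Clock and 0.17 for Dbp (adjusted p = 1 for both), but the directions stayed. For the 9 cKO mice against P30, Dbp turned from 0.05 to -0.0823 and Clock went from 0.02 to 0.09. For P38 against P32 they were then 0.40 (adjusted p = 0.257) and -0.40 (adjusted p = 0.234), and for P34 against P32 0.37 and -0.29 (adjusted p = 0.231 and 0.237). Without P32 mouse 6, both genes passed the threshold for P34 against P32 (0.68 for Clock and -0.68 for Dbp, adjusted p = 0.0134 and 0.0168, with 14.7% of all genes past it) and for P38 against P32 (0.71 and -0.79, adjusted p = 0.0221 for both, with 10.6% of all genes). With the length score in the model, an alternative added once the data had been seen, P32 against P30 gave -0.19 for Clock and 0.17 for Dbp. P34 against P32 then gave 0.30 for Clock and -0.24 for Dbp, and P38 against P32 gave 0.31 and -0.33. No clock gene passed in any comparison of this fit. Against P30, 0.00537% (P32), 0.789% (P34), 0% (P38) and 0.0591% (the 9 cKO mice) of all genes passed in it. The share was 0.156% for P34 against P32, 0.236% for P38 against P34, 0% for P38 against P32 and 0.327% over the 4 ages. With the mean log2 CPM of the ciliary body and iris genes in the model instead, P34 against P32 gave 0.20 for Clock and -0.21 for Dbp, and P38 against P32 gave 0.52 and -0.60. Against P30, this covariate took P32 to -0.46 for Clock and 0.50 for Dbp, turned P34 to -0.26 and 0.29, and took P38 to 0.0661 and -0.10. The part of transcript length, of ciliary body and of lens tissue in these differences was not tested beyond these values.

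**Figure D3:**
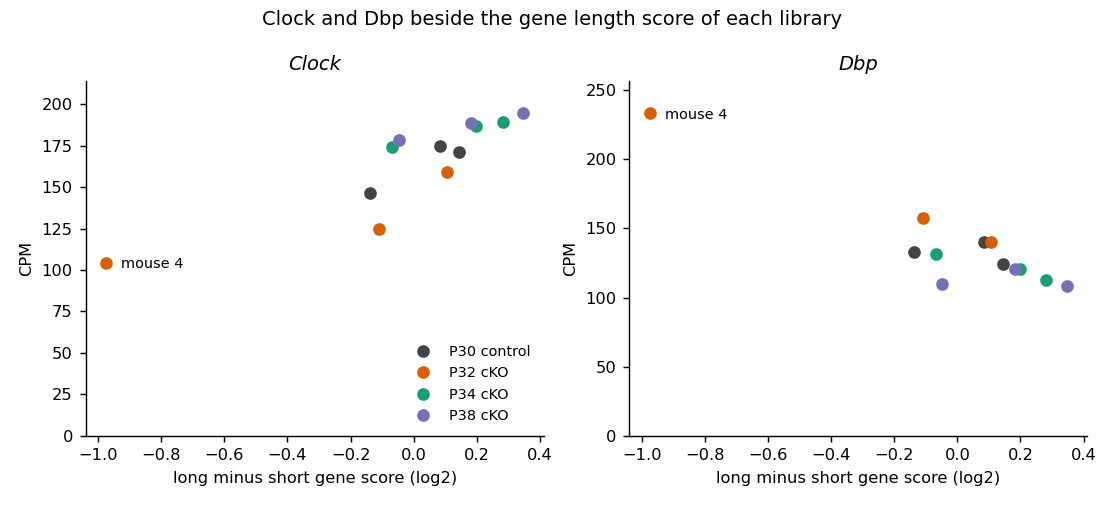
CPM of Clock (left) and Dbp (right) of each mouse (vertical axes, from 0) against the long minus short gene score of its library (horizontal axis, log2), coloured by age group. P32 mouse 4 stands apart at a score of -0.97, with 104.4 CPM of Clock and 233 CPM of Dbp.

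The ratio of Dbp to Arntl within a library sets an output gene beside an activator gene. It was 1.28 ± 0.240 at P30, 1.72 ± 0.455 at P32, 1.26 ± 0.189 at P34 and 1.15 ± 0.101 at P38 (SD, n = 3 each). The P30 mice overlapped each later group, with P30 mouse 3 at 1.56, above P32 mouse 6 at 1.33. All P32 mice lay above all P38 mice, whose highest ratio was 1.25, and P32 mouse 4 had the highest ratio of all at 2.22.

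Among the repressors, the coefficient of variation over the 12 mice was 12.1% for Per1, 19.5% for Per2 and 19.8% for Per3, beside 4.06% for Cry1 and 7.48% for Cry2. Per1, an early responder to light and hormones in many tissues (ENSMUSG00000020893, chr11:69095217-69109960, plus strand), had 81.6, 77.9 and 93.5 CPM at P30 and 72.9, 92.3 and 93.8 CPM at P32. The P34 mice had 83.7, 100.2 and 86.8 CPM and the P38 mice 67.9, 71.5 and 79.6 CPM. All P38 mice lay below all P34 mice, as did those of 9.95% of all genes in either direction, and the P38 mice overlapped those of P30. The log2 fold change of P38 against P34 was -0.31 (95% interval -0.57 to -0.04, adjusted p = 0.855). Over 20 alternative fits of this comparison it ran from -0.37 to -0.10.

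Per2 (ENSMUSG00000055866, chr1:91415982-91459324, minus strand) had 24.3, 26.5 and 26.7 CPM in the P30 mice and 26.1, 33.1 and 33.6 CPM in the P32 mice. The P34 mice had 19.3, 28.5 and 21.6 CPM of Per2 and the P38 mice 17.7, 30.9 and 31.1 CPM. Per3 (ENSMUSG00000028957, chr4:151003652-151044665, minus strand) had 113.1, 132 and 113.5 CPM in the P30 mice and 95.6, 141 and 139 CPM in the P32 mice. The P34 mice had 77.2, 117 and 98.4 CPM of Per3 and the P38 mice 77.8, 127.5 and 137 CPM. Both genes were tight in the P30 mice, with a coefficient of variation of 5.23% for Per2 and 8.84% for Per3, and wide in the P38 mice, at 28.9% and 27.8%. The same mice were low and high for both: P38 mouse 10 and P34 mouse 7 were the 2 lowest, and P32 mice 5 and 6 the 2 highest. Over the 12 mice the Pearson correlation of their log2 CPM was 0.93 (Spearman 0.92), and it was 0.83 without the 2 mice farthest from the median of Per3, P34 mouse 7 and P38 mouse 10. This pair was singled out after its values were seen, and the mice share depth, tissue composition and transcript length effects.

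**Figure D4:**
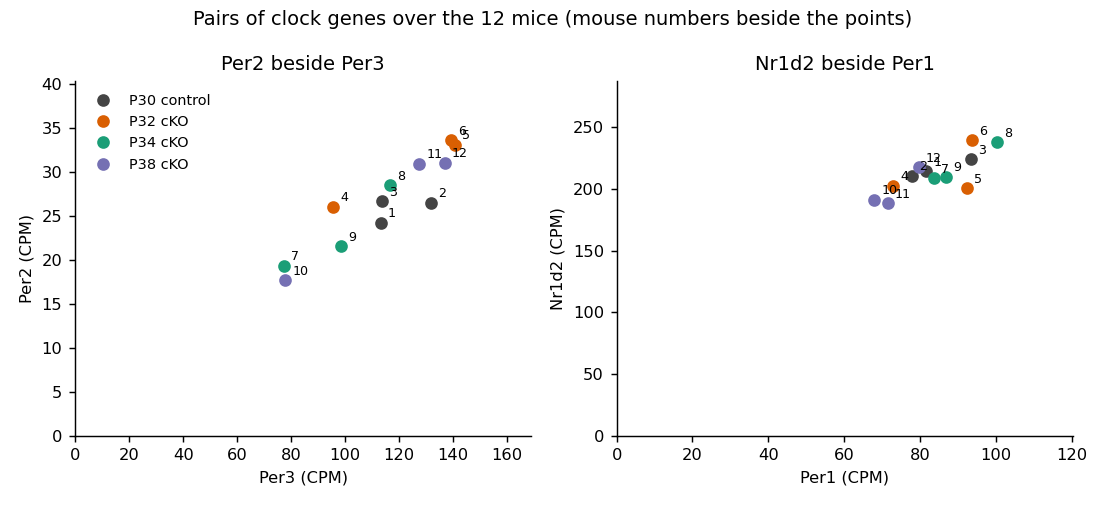
CPM of Per2 against Per3 (left) and of Nr1d2 against Per1 (right), 1 point per mouse with its number, coloured by age group. P34 mouse 7 and P38 mouse 10 lie lowest for both Per2 and Per3, and P32 mice 5 and 6 highest.

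Cry1 (ENSMUSG00000020038, chr10:85131700-85185064, minus strand) was the steadiest of the 10. The P30 mice had 63.7, 58.5 and 56.9 CPM, the P32 mice 58.5, 61.2 and 61.2 CPM, the P34 mice 59.3, 61.7 and 58.5 CPM, and the P38 mice 58.1, 54.6 and 59.4 CPM. Its coefficient of variation of 4.06% was the lowest of the 10, and that of Dbp, at 24.9%, was the highest. Cry2 (ENSMUSG00000068742, chr2:92403646-92434043, minus strand) had 159.9, 162 and 145 CPM at P30 and between 126.6 and 168.5 CPM later, with the lowest value in P38 mouse 10. Within the P38 mice Cry2 varied more than Per1, with coefficients of variation of 10.2% and 8.24%. All groups of both genes overlapped.

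Promoters of the repressors are shown because the elements of the loop can be read in them. Of the 10 genes, 9 had at least 1 promoter in the RefSeq table of GRCm38.p6, with 13 start sites, and Per2 was not among them. The 250 bases before each start site were searched on both strands for the E-box CACGTG, the D-box TTANGTAA, the ROR element TAGGTCA and the cAMP response element TGACGTCA. A match was found in 3 of the 13, the 3 printed here 5′ to 3′ on the strand of the gene, with the matched letters in capitals: Per3 at chr4:151044666-151044915 (2 D-boxes), Cry1 at chr10:85185055-85185304 (1 E-box) and Per1 at chr11:69098699-69098948 (1 E-box).
Per3: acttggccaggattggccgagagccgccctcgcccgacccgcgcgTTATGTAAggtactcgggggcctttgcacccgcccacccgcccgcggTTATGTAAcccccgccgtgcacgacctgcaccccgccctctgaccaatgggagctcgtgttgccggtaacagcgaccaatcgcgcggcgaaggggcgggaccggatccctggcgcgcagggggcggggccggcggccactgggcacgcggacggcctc
Cry1: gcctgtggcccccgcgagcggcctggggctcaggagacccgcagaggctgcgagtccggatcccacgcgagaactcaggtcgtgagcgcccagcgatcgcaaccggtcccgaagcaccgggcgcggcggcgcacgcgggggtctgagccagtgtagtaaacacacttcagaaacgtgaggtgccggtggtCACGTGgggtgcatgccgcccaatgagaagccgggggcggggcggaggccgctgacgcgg
Per1: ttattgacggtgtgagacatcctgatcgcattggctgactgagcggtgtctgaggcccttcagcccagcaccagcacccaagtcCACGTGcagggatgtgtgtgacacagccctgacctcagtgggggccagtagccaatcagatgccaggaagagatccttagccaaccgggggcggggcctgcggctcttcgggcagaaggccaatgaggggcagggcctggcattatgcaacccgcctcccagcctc
The 2 D-boxes of Per3 begin 205 and 158 bases before its start site, the E-box of Cry1 60 bases and that of Per1 166 bases before. Of 32817 upstream windows of the same length in the table, 6.02% held this E-box and 2.06% this D-box, while the ROR element and the cAMP response element, held by 2.24% and 1.55%, were in none of the 13. A match describes the letters only, and windows farther out were not searched.

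Nr1d1 and Nr1d2 encode the haem-binding nuclear receptors of the loop's second arm. Nr1d1 (ENSMUSG00000020889, chr11:98767932-98775333, minus strand) had 210.5, 216 and 194 CPM at P30 and 179, 211.5 and 197.5 CPM at P32. The P34 mice had 199.9, 204 and 193 CPM and the P38 mice 164, 180.3 and 184.5 CPM. The P38 mice lay below all P30 and all P34 mice, and groups without overlap, in either direction, were found in 16.2% of all genes at P38 against P30 and 9.95% at P38 against P34. The log2 fold change at P38 against P30 was -0.23 (95% interval -0.43 to -0.03, adjusted p = 0.847), or 0.852-fold. Of its exon sequence, 8.55% lies opposite exons of Thra. Nr1d2 (ENSMUSG00000021775, chr14:18204054-18239127, minus strand) had 214, 211 and 224 CPM at P30 and between 188 and 239.5 CPM later, all groups overlapping.

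**Figure D5:**
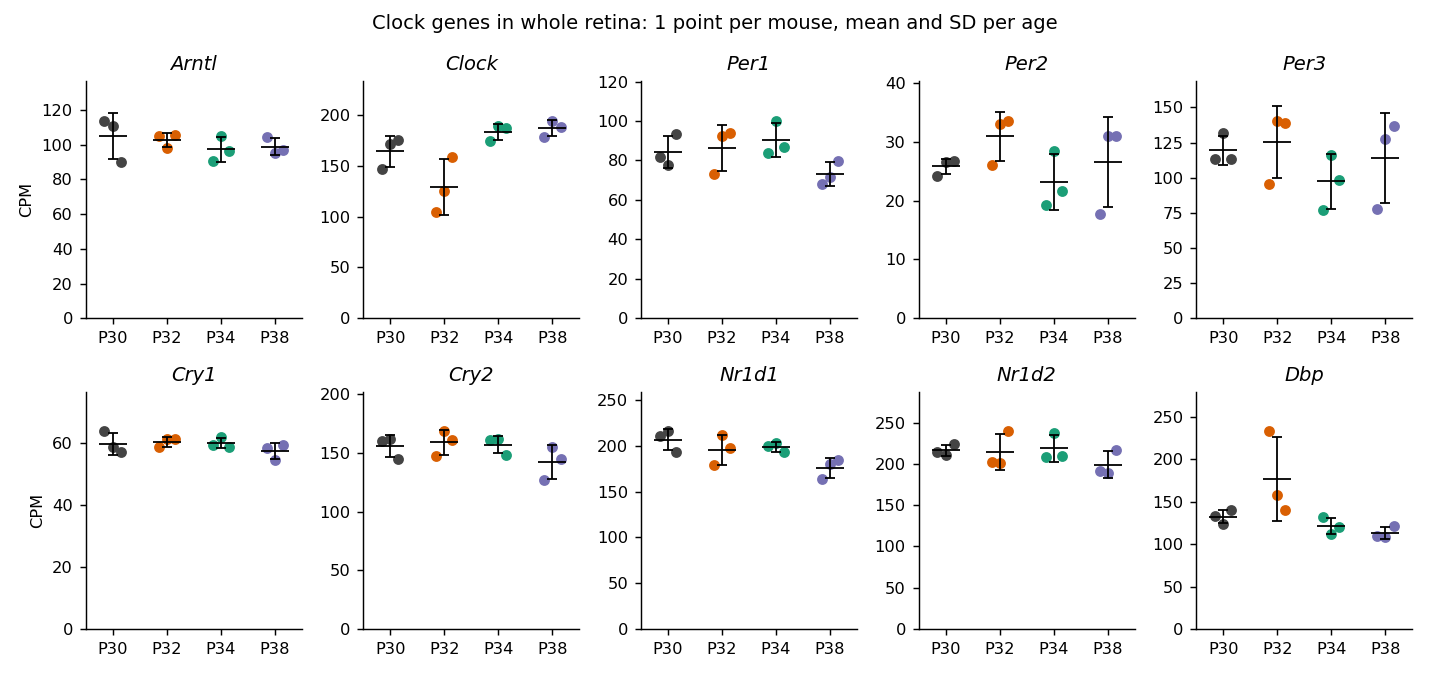
CPM of each of the 10 clock genes (vertical axes, from 0) at P30 (control) and at P32, P34 and P38 (cKO); points are mice, and bars give the mean and SD of 3 mice. The P38 mice lie below the P34 mice for Per1 and Nr1d1, a lack of overlap found in 9.95% of all genes, and P32 mouse 4 lies highest for Dbp at 233 CPM.

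Likeness of pattern was measured for an activator, a repressor and the output gene as the Pearson correlation of log2 CPM over the 12 mice, among genes with a mean of at least 5 CPM, and is given as a description. Arntl was most like Nsun4 (0.93), Stard7 (0.93), Bbs2 (0.91), Ddx20 (0.90) and Terf1 (0.89), and the clock gene nearest to it was Cry1 at 0.54, in place 747 of 11815. Dbp was most like Npdc1 (0.98), Rp9 (0.97), Sra1 (0.97), Fbxw4 (0.97) and Snhg15 (0.97), each of which, with 1.36 to 3.91 kb of exon, was also highest in P32 mouse 4. No other clock gene was among the 100 genes most like Arntl or most like Dbp. Clock was opposite to Dbp, at -0.93 over all mice (place 11510 of 11815), -0.83 without P32 mouse 4 and -0.70 without P32 mice 4 and 5, the 2 farthest from the median. Per1 was most like Gpr37 (0.85), Slc14a1 (0.84), Bhlhe40 (0.84), which encodes a repressor that binds E-boxes, 9330102E08Rik (0.83) and Ppp4r4 (0.83). Of the other clock genes, Nr1d2 stood in place 16 for Per1 at 0.80, and Nr1d1 in place 119 at 0.64. Without the 2 mice farthest from the median of Per1, P34 mouse 8 and P38 mouse 10, the value for Nr1d2 was 0.65. After subtraction of the age means, Nr1d2 stood in place 705 at 0.72. All these libraries share tissue makeup and depth with the genes compared.

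Other genes of the clock were counted by lists. Of 10 further genes of the loop, 11 kinases, ubiquitin ligases and deubiquitinases that act on clock proteins, and the 9 tested of 10 listed output genes, 0 passed the threshold in any of the 8 comparisons (edgeR). At an unadjusted p, 0 of the 30 did so for the 9 cKO mice against P30 (2.63% of all genes), 0 at P32 (5.64%), 1 at P34 (10.5%) and 3 at P38 (5.64%). Between later ages, 9 of the 30 did so for P34 against P32 (26.9% of all genes), 12 for P38 against P32 (23.3%) and 4 for P38 against P34 (5.08%). Rorb, a nuclear receptor of the retina that competes with the REV-ERBs for their site, had the largest value of the loop genes for the 9 cKO mice, 0.26 (standard error 0.16), at 305 CPM on average at P30 and 366 CPM in the cKO mice. Noct, a phosphatase with a strong daily rhythm in many tissues, had 44.8 CPM on average at P30, then 46.4 (P32), 39.2 (P34) and 31.8 (P38), and its log2 fold change of P38 against P32 was -0.54 (adjusted p = 0.114). Fbxl21, a ligase for the CRY proteins, was at 2.91 CPM on average at P30 and 3.26 CPM in the cKO mice (0.17, standard error 0.21).

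Retinal genes known for a daily rhythm gave 0 of 9 tested past the threshold in the same comparisons (edgeR). The paper, which used DESeq2, lists 1 of them, Adcy1, as upregulated 8 d after induction. Adcy1, an adenylyl cyclase of photoreceptors, was at 317, 402 and 493 CPM in the P30 mice and 216, 301 and 358 CPM in the P32 mice. In the P34 mice Adcy1 was at 508, 534 and 504 CPM and in the P38 mice at 582, 622 and 583 CPM. All P34 and P38 mice lay above all P32 mice for Adcy1, a lack of overlap that 28.4% (P34) and 26.4% (P38) of all genes had in one direction or the other. They also lay above all P30 mice, as in 20.1% (P34) and 16.2% (P38) of all genes in either direction, with log2 fold changes against P30 of 0.35 at P34 (adjusted p = 0.540) and 0.56 at P38 (adjusted p = 0.847). The log2 fold change of Adcy1 was 0.82 for P34 against P32 (adjusted p = 0.0948) and 1.03 for P38 against P32 (adjusted p = 0.114). The rod sum was likewise higher in all P34 and P38 mice than in all P30 and P32 mice, and its part was not tested. Opn4, the melanopsin of intrinsically photosensitive ganglion cells, was at 5.72 CPM on average at P30, then 4.90 (P32), 6.58 (P34) and 7.85 (P38). Aanat, the enzyme that times melatonin synthesis, was low, at 0.205 to 0.620 CPM.

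Genes that answer to light, handling and stress hormones within the hour were listed because Per1 is one of them. Of 16 immediate early genes tested, 0 passed the threshold in any comparison (edgeR), while 5 were higher at P32 against P30 at an unadjusted p, where 2.55% of all genes were. Of the 16, 3 were higher at P34 (3.40% of all genes) and 2 lower at P38 against P30 (3.82%), and 0 passed for the 9 cKO mice together. Between later ages, 2 were lower for P34 against P32 (13.3% of all genes), 6 for P38 against P34 (1.58%) and 7 for P38 against P32 (10.9%). Dusp1, a phosphatase that ends MAP kinase signals, was at 14.6 CPM on average at P30 and 30.5 CPM at P32 (1.07, standard error 0.21, adjusted p = 0.592). The paper, which used DESeq2, lists Dusp1 and Nr4a1 as upregulated 2 d after induction, so the count of 0 holds for edgeR only. Fos was at 23.2 CPM on average at P30, 48.3 CPM at P32 (adjusted p = 0.698) and 16.6 CPM at P38. For Per1 the mean was 84.3 CPM at P30 and 86.3 CPM at P32, with a log2 fold change of 0.03 (95% interval -0.23 to 0.30). Of 11 genes that respond to glucocorticoids, 1 passed the threshold in 1 comparison: Sult1a1, a sulfotransferase, was at 2.11 CPM on average at P30 and 0.588 CPM at P34 (-1.84, adjusted p = 0.0409), a comparison in which 0.660% of all genes passed. The P34 mice were also those with the lowest ciliary body and iris sums, 46.7 to 54.0 CPM. With the mean log2 CPM of those genes as a covariate, 1 gene of all those tested passed at P34 against P30. That covariate was 0.0547 to 0.460 in the P34 mice and 1.03 to 2.68 in all others. A fit with it can therefore hardly tell it apart from the P34 group, and nothing is concluded from the 1 gene. The part of these cells in the value of Sult1a1 was not tested.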

How the data were processed

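RNA of the whole retina was measured in 12 mice, each with its own library. From single reads of stranded mRNA libraries, mapped with STAR 2.5.3a (mm10), the authors counted reads per Ensembl gene with HTSeq 0.6.1p1 in union mode and deposited the raw counts, per the paper's methods and the labels; the strand setting is not given in the sources used here. The counts deposited were not normalized. Reads without a gene were 6.53 to 13.7% of each file, ambiguous reads 0.646 to 0.696% and reads not uniquely mapped 23.7 to 32.2%, and all were left out.

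Groups were taken from the labels. Of 54146 genes, 54079 matched GENCODE M21 symbols. CPM used TMM-scaled library sizes. edgeR 4.0.16 in R 4.3.3 (glmQLFit, glmQLFTest) was fitted to all 12 mice with age as the factor, and the 9 cKO mice were set against P30 in a fit of their own; adjustment for multiple tests (Benjamini-Hochberg) ran over the 18628 genes left by edgeR's filter. DESeq2 1.42.0 was an alternative, as were other scalings, filters and covariates and leaving out each mouse. The test was checked on simulated data. Deposited libraries of a group differed by more than sampling noise (chi-square per degree of freedom 14.2 to 179 within groups), so each counted as 1 replicate. With 3 mice against 3, an exact permutation test of a single gene cannot go below p = 0.1 (two-sided), so none was run. Depth gives counting error only.

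The 10 clock genes and the other lists were chosen with earlier results of these data known. The 10 were all named. From each other list, up to 4 genes with the largest log2 fold change in size of the 9 cKO mice against P30 were eligible, with any past the threshold. Genes most like Arntl, Dbp and Per1 were the 5 with the highest correlation. Markers of rods, cones, bipolar, amacrine, ganglion and horizontal cells, Muller glia, retinal pigment epithelium, ciliary body, smooth muscle, lens, skeletal muscle and microglia were summed as CPM. The long minus short gene score was added after seeing the data. Sequences are from RefSeq (GRCm38.p6).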

Additional observations from a re-analysis of the deposited data

Results flagged for a closer look

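Over the 9 cKO mice, the highest and the lowest value of each clock gene were compared with the nearest other value. Dbp in P32 mouse 4, at 233 CPM, lay apart from the other 8 mice, with a gap of 0.607 of the whole range above Dixon's 95% critical value for 9 mice. Cry1 in P38 mouse 11, at 54.6 CPM, lay below the others with a gap of 0.5 of the range. Chance alone flags about 1 in 20 such groups, 10 genes were examined, and the 9 mice are of 3 ages. The range of Cry1 was narrow, from 54.6 to 61.7 CPM. Groups of 3 mice were not examined in this way.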

How the results depend on the processing

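No paired analysis was possible because the groups share no replicate numbers. The count of clock genes past the threshold stayed at 0 under every setting run for P32, P34 and P38 against P30, for the 9 cKO mice against P30 and for P38 against P34, other than at an unadjusted p without a limit on the fold, which is given with the results. At an unadjusted p with the limit on the fold, the share of all genes against P30 was 2.90% (P32), 6.27% (P34), 3.46% (P38) and 1.88% (the 9 cKO mice). It was 3.81% for P38 against P34. With the ciliary body covariate, 0.00537% of all genes passed at P34 against P30. For P34 against P32 the count was 1 with DESeq2, 2 at an unadjusted p with the limit on the fold (14.4% of all genes) and 0 to 2 when each mouse was left out. For P38 against P32 it was 2 with DESeq2, 1 with no filter on low counts (Dbp, adjusted p = 0.0486, with 0.591% of all genes), 2 at an unadjusted p with the limit on the fold (11.9% of all genes) and 0 to 2 without each mouse, and over the 4 ages it was 2, 2 and 0 to 2 with DESeq2 (7.31% of all genes), at an unadjusted p (17.2%) and without each mouse. In each of these 3 the count of 2 came from leaving out P32 mouse 6, which gave 14.7%, 10.6% and 3.15% of all genes. DESeq2 called 0.134%, 1.98% and 0.242% of all genes at P32, P34 and P38 against P30, 7.55% for P34 against P32 and 5.00% for P38 against P32, where edgeR called 0%, 0.660%, 0%, 0.242% and 0%. The cause was not tested.

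Of 1390 recomputed log2 fold changes of single clock genes, 1294 kept their direction and their side of the threshold, 8 passed it newly and 88 changed sign. None of those that changed sign was past the threshold before or after. Fitting only the groups compared gave 7.70e-04 for Arntl and 0.0154 for Nr1d2 (P32 against P30). With a ciliary body score as a covariate, whose values at P34 do not overlap those of the other mice, the changed values were -0.0364 for Per1, -0.0789 for Per3 and -0.0171 for Cry1 (P32 against P30), -0.26 for Clock, -0.19 for Per1, -0.14 for Cry1, -0.12 for Cry2, -0.37 for Nr1d2 and 0.29 for Dbp (P34 against P30), -0.12 for Per2 (P38 against P30), -0.16 for Per1, -0.0918 for Nr1d1 and -0.26 for Nr1d2 (P34 against P32), 0.0411 for Cry1 and 0.13 for Nr1d2 (P38 against P34) and -0.16 for Clock (cKO against P30). With sex as a covariate (all 3 P30 mice and 4 of the 9 cKO mice were female by their counts) they were 0.0108 for Nr1d2 (P32 against P30), 0.14 for Per3 (P38 against P30) and 0.0640 for Per1, 0.11 for Per3, 0.00968 for Cry1, 0.00263 for Cry2 and 0.00373 for Nr1d2 (cKO against P30). With the length score they were 0.0410 for Nr1d2 (P32 against P30), -0.00486 for Cry2 and -0.00126 for Nr1d2 (P34 against P30), -0.0531 for Per2 (P38 against P30), -0.0918 for Per1, -0.0549 for Nr1d1 and -0.0422 for Nr1d2 (P34 against P32) and -0.0204 for Dbp (cKO against P30). A filter of at least 1 CPM in 3 mice gave -0.00502 for Cry1 (P34 against P30). Without each mouse in turn, P32 against P30 ranged from -0.13 to 0.0342 for Arntl, -0.0296 to 0.14 for Per1, -0.0240 to 0.23 for Per3, -0.0185 to 0.0643 for Cry1, -0.0160 to 0.0840 for Cry2 and -0.10 to 0.0310 for Nr1d2. P34 against P30 ranged from -0.0301 to 0.0526 for Cry1, -0.0354 to 0.0594 for Cry2 and -0.0480 to 0.0534 for Nr1d2. P38 against P30 ranged from -0.0861 to 0.26 for Per2 and -0.22 to 0.14 for Per3. P34 against P32 ranged from -0.0440 to 0.13 for Per1, -0.0341 to 0.00548 for Cry1, -0.0706 to 0.0236 for Cry2, -0.0405 to 0.0787 for Nr1d1 and -0.0340 to 0.12 for Nr1d2. P38 against P34 ranged from -0.0244 to 0.0805 for Arntl and -0.00665 to 0.0701 for Clock. P38 against P32 ranged from -0.35 to 0.00295 for Per2 and -0.30 to 0.0787 for Per3. cKO against P30 ranged from -0.0540 to 0.0873 for Clock, -0.0736 to 0.0612 for Per1, -0.0462 to 0.0365 for Cry1, -0.0748 to 0.00385 for Cry2 and -0.0823 to 0.0912 for Dbp. The causes were not tested. After subtraction of the age means, 0 other clock genes in place of 1 were among the 100 most like Per1.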
